A study of Mus musculus with 3 samples.

Results

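Chondrocytes with little Ucma and little Col10a1 RNA made up 917 of the 5463 cell barcodes of day 7 fracture callus that passed basic filters (14807 barcodes were in the 3 matrices in all). They were chosen by measured RNA: a barcode had at least 500 detected genes, at most 10% of its unique molecular identifiers (UMIs, 1 per captured RNA molecule) in mitochondrial genes, at least 1% in Col2a1 and more Col2a1 than Col1a1 UMIs. It also had less than 0.05% of its UMIs in Col10a1, less than 0.1% in Ucma and fewer than 5 UMIs of Tnmd, Thbs4 and Sfrp5 together. This left 607 control, 182 PTH and 128 YKL barcodes. The levels of the 7 rule genes are therefore no finding.

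The callus came from fractured femurs of female C3H/HeJ mice, a strain that heals fractures slowly, which were 9 weeks old. It was dissected away from the marrow on day 7 and digested with collagenase. The control group was injected under the skin with saline vehicle each day, and the other groups with PTH 1-34, the N-terminal fragment of parathyroid hormone, at 100 µg/kg or with YKL-05-099 (YKL), an inhibitor of salt-inducible kinases, at 15 mg/kg. Each group is 1 droplet library, and how many mice it pools is not stated. No difference between groups therefore has a replicate check or a test, and the intervals in parentheses are 95% intervals that cover counting error only. Both treatments are compared with the same control library.

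Callus cartilage is made by chondrocytes that secrete type II collagen and aggrecan and mature through a prehypertrophic stage, marked by Ihh, to a hypertrophic stage, marked by type X collagen. Ucma encodes a secreted protein of cartilage matrix. Cartilage has few vessels, and its cells are known to rely on hypoxia-inducible factors and glycolysis. PTH and PTH-related protein act on chondrocytes through the receptor Pth1r and cAMP, which restrains the salt-inducible kinases, whose targets are the CRTC coactivators and class IIa histone deacetylases.

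Control, PTH and YKL members had medians of 16342, 16874 and 29743.5 UMIs, so the YKL library was the deeper one. Levels are CPM, the UMIs of a gene per 1000000 UMIs summed over the members of a library, and the sums were 9957066, 3116184 and 4109944. Between 2 and 8 barcodes were shared by any pair of libraries, and none of these was a member. No doublet caller was run, and doublets may remain: 57 control, 7 PTH and 1 YKL members had at least 3 UMIs of 8 leukocyte and endothelial genes. The control library stood apart in RNA of blood cells. The 5 red cell markers summed to 18728, 6172 and 292 CPM, the 8 macrophage markers to 106, 16.4 and 4.62 CPM and the 8 neutrophil markers to 838, 20.5 and 22.9 CPM, with 3 of the latter and the macrophage markers C1qa, C1qc, Csf1r and Adgre1 at 0 in YKL members. Of 2862 control S100a8 UMIs, 2648 lay in 5 members. The part of this RNA in the results was not tested.

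Members made up 38.5% (36.1% to 41.0%) of control, 27.1% (23.8% to 30.6%) of PTH and 33.5% (28.8% to 38.5%) of YKL barcodes that met the Col2a1 limits. They are set beside the other chondrocytes of their own library in 3 groups. Ucma-high chondrocytes, with at least 0.1% Ucma and less than 0.05% Col10a1, numbered 494, 151 and 14. Col10a1-intermediate chondrocytes, with 0.05% to below 0.5% Col10a1, numbered 188, 100 and 102, and Col10a1-high chondrocytes, with 0.5% or more, 163, 86 and 130.

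Of the 4 genes proposed as markers of these cells, 2 were at least 1.5-fold higher than in Ucma-high chondrocytes in all 3 libraries. Bnip3, a mitophagy receptor and hypoxia target, stood at 885, 741 and 724 CPM in control, PTH and YKL members, against 444, 262 and 144 CPM in Ucma-high chondrocytes. Espn, an actin-bundling protein, stood at 78.3, 124 and 65.5 CPM against 8.52, 2.81 and 0 CPM. Both were above Ucma-high chondrocytes in every library. Cox4i2, the hypoxia-responsive isoform of a cytochrome c oxidase subunit, stood at 678, 683 and 684 CPM against 425, 335 and 593 CPM and passed 1.5-fold in the control and PTH libraries. Col9a3, a chain of the type IX collagen on cartilage fibrils, went against the label, with 7386, 5704 and 6312 CPM in the members and 7925, 6288 and 7761 CPM in Ucma-high chondrocytes. None of the 4 was 1.5-fold above Col10a1-intermediate chondrocytes in all 3 libraries, so the cells are called by the rule and not by these genes.

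**Figure D1:**
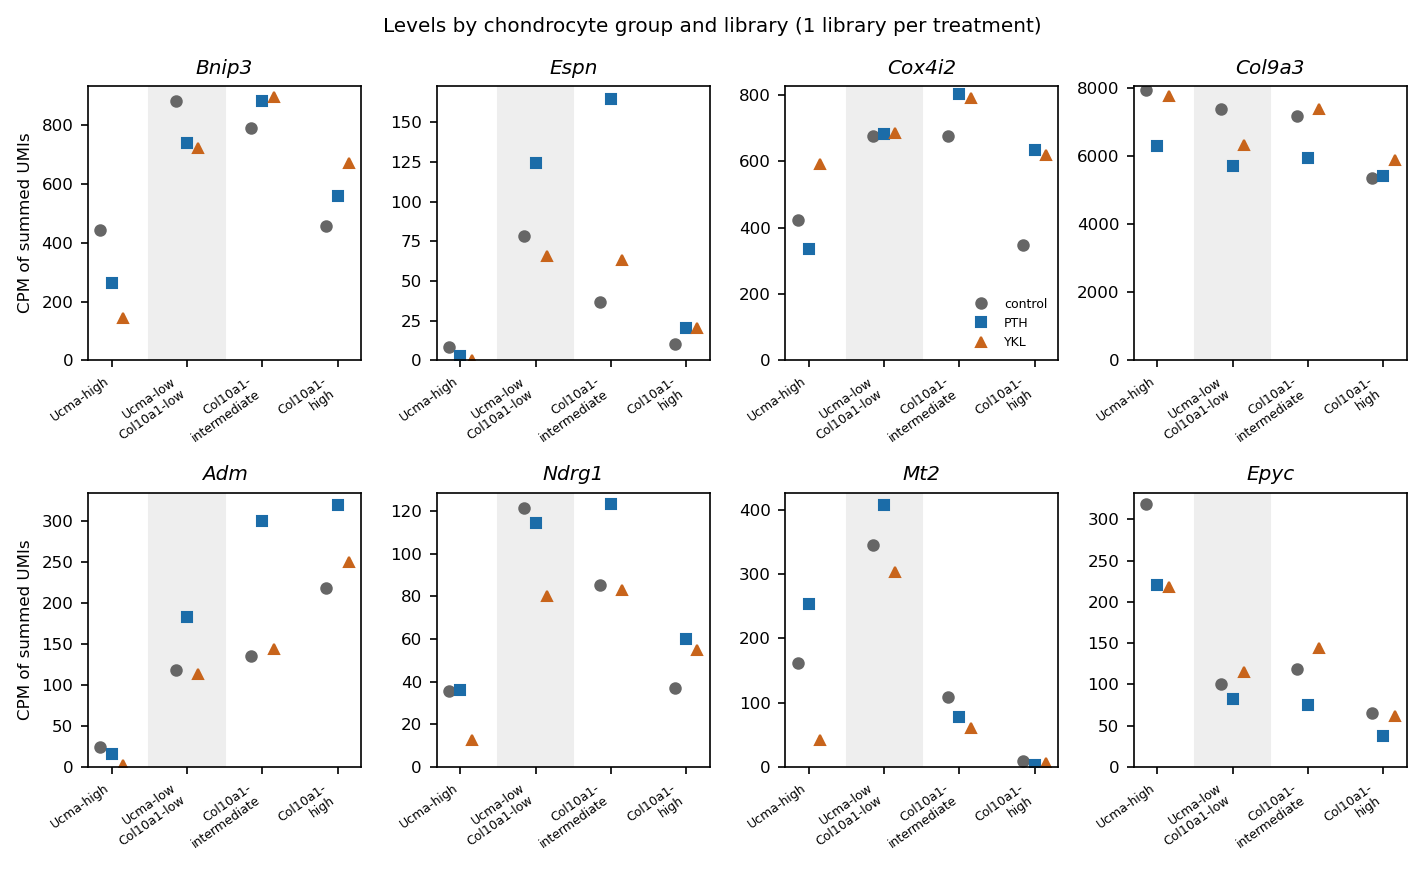
Levels of 8 genes as CPM of summed UMIs (vertical axes from 0) in 4 groups of chondrocytes (horizontal axis) of the control, PTH and YKL libraries, with 1 point per library and no error drawn. Shading marks the Ucma-low Col10a1-low chondrocytes, in which Bnip3 and Ndrg1 were above and Epyc was below the Ucma-high chondrocytes of the same library.

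The promoters of Bnip3 and Espn are shown beside that of Adm, another gene that stood higher in the members, because hypoxia-inducible factors bind a short core sequence. Each is the 250 bases before a RefSeq start (GRCm38.p6), 5′ to 3′ on the gene's strand, with ACGTG and GCGTG in capitals, searched on both strands and thus also read as CACGT and CACGC. Bnip3 lies at chr7:138890836-138909519 (minus strand), Espn at chr4:152120331-152152371 (minus) and Adm at chr7:110627661-110629820 (plus) in the GENCODE annotation, and all are protein-coding.
Bnip3, chr7:138909507-138909756 (minus): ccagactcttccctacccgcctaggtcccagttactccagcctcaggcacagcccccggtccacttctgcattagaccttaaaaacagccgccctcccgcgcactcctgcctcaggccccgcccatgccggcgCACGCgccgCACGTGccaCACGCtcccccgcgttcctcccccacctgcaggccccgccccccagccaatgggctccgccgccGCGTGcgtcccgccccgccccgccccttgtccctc
Espn, chr4:152152390-152152639 (minus): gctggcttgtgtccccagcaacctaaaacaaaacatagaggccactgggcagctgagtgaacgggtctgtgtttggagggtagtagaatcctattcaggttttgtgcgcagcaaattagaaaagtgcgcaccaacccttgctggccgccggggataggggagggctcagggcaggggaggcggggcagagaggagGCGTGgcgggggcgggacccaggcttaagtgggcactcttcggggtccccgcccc
Adm, chr7:110627407-110627656 (plus): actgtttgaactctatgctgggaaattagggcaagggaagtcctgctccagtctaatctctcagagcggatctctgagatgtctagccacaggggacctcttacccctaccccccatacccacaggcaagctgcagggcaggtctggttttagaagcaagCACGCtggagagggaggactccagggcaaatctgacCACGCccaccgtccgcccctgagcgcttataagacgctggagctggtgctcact
The Bnip3 promoter held 5 matches, of which those at -108 and -107 overlap in CACGTG, the Adm promoter 2 and this Espn promoter 1, at -55. Of 3 Espn starts in the table, 1 had no match. A match was found in 38.6% of all 32851 promoters of this length and, counting any start of a gene, in 26 of 27 hypoxia genes in the table, against 41.5% of all 27025 genes. A match describes these letters and is not a binding site. Col9a3 and Cox4i2 had no entry.

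Many hypoxia genes and some glycolysis genes were higher in the members than in Ucma-high chondrocytes. Of 6463 genes compared, 182 (2.82%) reached 1.5-fold upward in all 3 libraries and 64 (0.99%) 1.5-fold downward. Since the rule chose the cells, every gene of this contrast counts as used and the counts are a description. Of 31 hypoxia genes 16 were higher and 0 lower, with median log2 ratios of 0.61, 0.99 and 1.00, against -0.04, -0.04 and 0.07 over all genes. Adm, the vasodilator peptide adrenomedullin, was at 118, 183 and 114 CPM against 24.2, 16.2 and 1.82 CPM. Ndrg1, a hypoxia-induced stress protein, was at 121, 114 and 80.3 CPM against 35.5, 36.2 and 12.7 CPM. Both were above the Ucma-high level in each library, as were Ero1l, an oxidase of the endoplasmic reticulum, and the vessel growth factor Vegfa. Ero1l was at 384, 383 and 342 CPM against 129, 69.6 and 61.8 CPM, and Vegfa at 135, 117 and 141 against 63.1, 34.1 and 14.5 CPM. The YKL values rest on 14 Ucma-high chondrocytes, and over the control and PTH libraries alone, a choice made after the data were seen, 19 of 32 hypoxia genes were higher and 0 lower.

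Among 20 glycolysis genes, Aldoc, Gapdh, Gpi1, Gys1, Hk1 and Pfkp were higher in all 3 libraries and 0 lower. Gapdh, a core glycolytic enzyme, stood at 7296, 5957 and 5508 CPM against 3902, 2365 and 1550.4 CPM. At an equal 2000 UMIs per cell the members held medians of 27, 23 and 23 UMIs of the hypoxia list, and Ucma-high chondrocytes 19, 11 and 9. Of 13 mitochondrially encoded genes 0 were higher and 4 lower, namely mt-Atp6, mt-Co1, mt-Co2 and mt-Nd1, and the median mitochondrial share per cell was 1.57%, 1.60% and 1.27% against 3.04%, 3.49% and 4.06%. Of 31 nuclear genes of oxidative phosphorylation 0 were higher and 1, Ndufa4, lower. A low mitochondrial share was not particular to the members. Its median was 1.70%, 1.45% and 0.936% in Col10a1-intermediate and 2.07%, 1.80% and 0.809% in Col10a1-high chondrocytes. The mitochondrial share also varies with cell quality, and its part in these ratios was not tested.

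Other genes that led upward over Ucma-high chondrocytes were Selenbp1, a methanethiol oxidase, Apln, the ligand of the apelin receptor, and Igfbp6, which binds insulin-like growth factors. Selenbp1 was at 104, 54.9 and 54.7 CPM against 18.0, 10.2 and 1.82 CPM, Apln at 96.9, 94.0 and 79.1 against 21.2, 11.2 and 3.64 CPM and Igfbp6 at 53.2, 85.04 and 63.3 against 11.9, 19.7 and 19.99 CPM. Leading downward were Arsi, Epyc, Map7d3, Mest, Mia and Nrtn. Epyc, the small proteoglycan epiphycan, was at 99.9, 81.8 and 115 CPM against 319, 221 and 218 CPM. Mest, an imprinted gene, was at 88.5, 98.5 and 176 against 253, 435 and 347 CPM, but with the Ucma limit at 0.2% the YKL ratio turned upward. Of 22 cartilage matrix genes 0 were higher and 5 lower, namely Chad, Cnmd, Epyc, Matn1 and Mia. Cnmd, the anti-angiogenic protein chondromodulin, was at 1341, 1073 and 1445 CPM against 2273, 2273 and 2706 CPM. Acan, the core protein of aggrecan, at 4152, 4799 and 4288 against 4718, 4956 and 4024 CPM, and the chondrocyte regulator Sox9, at 818, 772 and 755 against 729.8, 668 and 653 CPM, were within 1.5-fold in each library. The metallothioneins Mt1 and Mt2 and the haem oxygenase Hmox1 were higher, 3 of 13 genes of that list, and 0 were lower.

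Against Col10a1-intermediate chondrocytes, 60 of 6567 genes (0.914%) reached 1.5-fold upward in the members in all 3 libraries and 109 (1.66%) downward. Of 32 hypoxia genes 0 were higher and 1, Epas1, lower, and of 20 glycolysis genes 0 were higher and 0 lower. Higher in the members were Mt1, Mt2, the fibril-associated collagen Col12a1 and the small nucleolar RNA host genes Gas5, Snhg12 and Zfas1. Mt2, a zinc-binding protein, was at 345, 407 and 302 CPM in the members, 108, 78.2 and 60.7 CPM in Col10a1-intermediate and 8.71, 2.58 and 6.65 CPM in Col10a1-high chondrocytes, the same order in each library. Lower were Aldh1a3, Ddit4l, F13a1, Loxl4, Mmp13 and Pxylp1. Aldh1a3, which makes retinoic acid, was at 7.13, 58.4 and 23.6 CPM against 107, 305 and 137 CPM, and Mmp13, the collagenase of hypertrophic cartilage, at 10.8, 5.13 and 5.11 against 112, 111 and 79.6 CPM. Of 15 prehypertrophic genes 0 were higher and 2, Ihh and Mef2c, lower. Ihh, the hedgehog ligand of prehypertrophic cells, was at 33.2, 124 and 171 CPM in the members, 257, 692 and 391 CPM in Col10a1-intermediate and 1109, 1074 and 1096 CPM in Col10a1-high chondrocytes.

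Against Col10a1-high chondrocytes, 539 of 6563 genes (8.21%) reached 1.5-fold upward in all 3 libraries and 414 (6.31%) downward. Leading upward were Mt1, Mt2, C1qtnf3, Fbln2, Fndc1 and the intermediate filament gene Vim, and leading downward were Cds1, Irx5, Loxl4, Mmp13, Scube3 and Spon2. C1qtnf3, a secreted protein of the C1q and TNF family, was at 1739, 1328 and 1252 CPM against 359, 234 and 239 CPM, and at 4458, 3269 and 1783 CPM in Ucma-high chondrocytes, so the members lay between. Of 19 genes that build proteoglycan sugar chains 8 were higher and 1, Has2, lower. Among the higher ones were the sulphate transporter Slc26a2 and the sulphate donor enzymes Papss1 and Papss2. Of 15 prehypertrophic genes 0 were higher and 6 lower, including Runx2, the regulator of bone and hypertrophy, at 51.5, 55.2 and 72.8 against 181, 201 and 147 CPM. Of 32 hypoxia genes 5 were higher and 2, Adm and Epas1, lower. Bnip3 was at 459, 559.9 and 671 CPM in Col10a1-high chondrocytes, below the members in each library but by little in YKL.

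The rule cuts a range of cells, and values on both sides of its limits are a description. In members with 0.05% to 0.1% Ucma (97, 39 and 16 barcodes) Bnip3 was at 761, 491 and 192 CPM in control, PTH and YKL, and in the 160, 42 and 11 chondrocytes just outside, with 0.1% to 0.2% Ucma, at 606, 382 and 121 CPM. Espn was at 41.3, 39.99 and 9.98 CPM inside and 15.8, 4.73 and 0 CPM outside that limit. In members with 0.025% to 0.05% Col10a1 (65, 33 and 31 barcodes) Ihh was at 101, 265 and 258 CPM, and in the 62, 31 and 27 just outside, with 0.05% to 0.1% Col10a1, at 228, 459.8 and 291 CPM. Mt2 was at 299, 304 and 265 CPM inside and 173, 93.5 and 60.4 CPM outside it, and Espn at 96.0, 150.03 and 81.0 and 63.0, 189 and 167 CPM. Espn was lower outside the Ucma limit in each library, and outside the Col10a1 limit it was lower in the control and higher in PTH and YKL. Just outside the Col2a1 limit, with 0.5% to 1%, lay 42, 5 and 4 barcodes.

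The members were not uniform. Clustered without the rule genes they split into 8 subclusters, given here over all libraries by number and leading genes, as a description. Subcluster 1 (192 members), led by Espn, Chchd10 and Car6, had Espn at 312, Bnip3 at 1214, Adm at 295 and Mt2 at 777 CPM. Subclusters 2 and 3 (177 and 176 members), led by Ppa1 and Apod and by Fam180a and C1qtnf3, had Cnmd at 1812 and 1429 CPM, above the 549.7 CPM of subcluster 1. Subcluster 4 (138 members), led by Spp1, Igfbp6 and Igf1, had Spp1, the matrix protein osteopontin, at 2362 CPM. Subcluster 5 (125 members), led by Ppa1, Sgms2, Cthrc1, Cdkn1c and Ibsp, was low in hypoxia genes, with Bnip3 at 189, Adm at 6.44 and Espn at 1.23 CPM. Subcluster 6 (70 members), led by Aldh1a3, Ihh and Il17b, had Ihh at 287 and Bnip3 at 1028 CPM. Subcluster 7 (32 members) was led by the neutrophil genes S100a8 and S100a9 and subcluster 8 (7 members) by Fabp4, with the endothelial gene Pecam1 among its leading genes. The libraries were spread differently over the subclusters: most control members lay in subclusters 1, 2 and 3, most PTH members in 1 and 5 and most YKL members in 5 and 6. Since the leading genes themselves differ between libraries, the sizes are not compared.

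At equal depth most members had a UMI of Bnip3 and few had one of Espn. After thinning to 2000 UMIs, which left out 12 control, 2 PTH and 2 YKL members, Bnip3 was found in 79.0% (75.5% to 82.2%), 67.2% (59.8% to 74.0%) and 66.7% (57.7% to 74.8%) of members, and without thinning in 97.2%, 87.4% and 95.3%. In thinned endothelial barcodes, whose median depth was 6074, 6389 and 7707.5 UMIs, the shares were 8.02%, 3.26% and 2.04%. Bnip3 was thus above that background in each library. Espn was found in 10.6% (8.23% to 13.3%), 18.3% (13.0% to 24.8%) and 15.9% (9.97% to 23.4%) of thinned and 26.5%, 35.2% and 34.4% of unthinned members, and in no thinned endothelial barcode. Taking 3 barcodes as the limit of a count of 0, this allows shares of barcodes with a UMI of up to 1.85%, 1.09% and 6.12%. Ihh was found in 5.04% (3.43% to 7.12%), 16.1% (11.1% to 22.3%) and 19.8% (13.3% to 27.9%) of thinned members, 13.0%, 31.9% and 51.6% without thinning and 0%, 0.725% and 0% of endothelial barcodes, so its control share was the lowest of the 3. Cdkn1c was found in 11.8%, 26.1% and 34.9% of thinned members (34.8%, 54.4% and 52.3% without thinning) and 11.7%, 10.5% and 6.12% of endothelial barcodes, and the control shares of both were close.

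**Figure D2:**
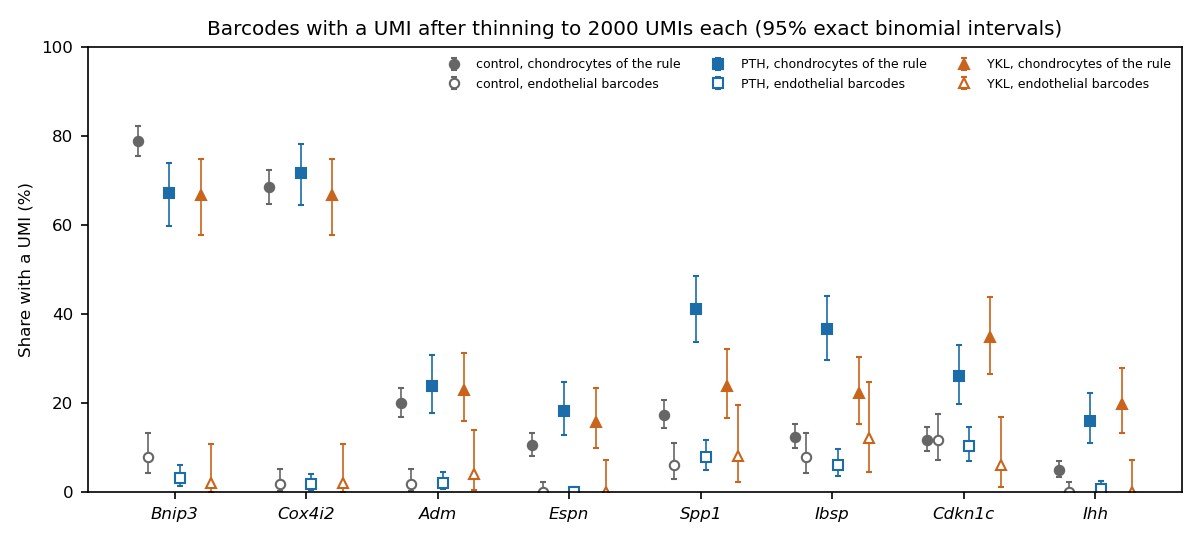
Share of barcodes with at least 1 UMI of 8 genes (%, vertical axis) after thinning each barcode to 2000 UMIs, for the Ucma-low Col10a1-low chondrocytes (filled) and endothelial barcodes (open) of each library; bars are exact binomial 95% intervals. Bnip3 was in 79.0% of control, 67.2% of PTH and 66.7% of YKL members, and Ihh in 5.04%, 16.1% and 19.8%.

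PTH members had more Ibsp, Spp1, Ihh and Cdkn1c RNA than control members. Of 9320 genes with at least 50 UMIs summed over the pair, 577 (6.19%) reached 1.5-fold upward with PTH and 577 (6.19%) downward. The leading genes named here and below for each pair had at least 50 CPM in 1 of the libraries and are not mitochondrial or ribosomal genes, unnamed gene models, genes of the rule or markers of other cell types, which are given with their lists. Ibsp, the bone sialoprotein of mineralizing matrix, was at 512, 3716 and 1919 CPM in control, PTH and YKL members, or 7.26-fold (7.03 to 7.51) with PTH. It was lowest in the control, but 2660 of 5094, 4704 of 11579 and 6738 of 7887 Ibsp UMIs lay in 5 members, and endothelial barcodes had 23.1, 60.2 and 36.2 CPM. Spp1 was at 377, 1195 and 1029 CPM, or 3.17-fold (3.03 to 3.32) with PTH. Ihh was at 33.2, 124 and 171 CPM, or 3.74-fold (3.22 to 4.34). Cdkn1c, a cyclin-dependent kinase inhibitor, was at 121, 548 and 636 CPM, or 4.53-fold (4.21 to 4.88). The others that led upward were Aldh1a3 at 8.19-fold (6.19 to 10.9), Qpct, a glutaminyl cyclase, at 4.47-fold (3.61 to 5.54), Ramp1, a coreceptor of calcitonin-like peptides, at 3.12-fold (2.67 to 3.64) and the antisense gene Dhx58os, whose reads cannot be told apart from those of Dhx58 because no source used here states how strand was counted. With the subclusters weighted equally, an alternative added after the data were seen, the PTH ratio was 3.79 for Ibsp, 5.01 for Spp1 and 2.70 for Cdkn1c. With Col10a1 below 0.02% it was 3.01 for Aldh1a3, and below 0.1% 4.57 for Ibsp and 2.01 for Spp1. Of 182 Aldh1a3 UMIs in PTH members, 116 lay in 5 members.

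Of the other cell markers, all 5 red cell markers were lower with PTH, at a median log2 ratio of -1.46, while 6.19% of all genes were lower. Of the 8 neutrophil markers 7 reached 50 UMIs only through the control library, so no count of that list is given. Apart from such markers and genes under 50 CPM, the genes that led downward with PTH were Nrn1, Fabp5, Ptx3, Tgfbi, Pcp4, H19, H2-DMa and H2-DMb1. Nrn1, a membrane-anchored neuritin, was at 71.7, 16.0 and 82.5 CPM in control, PTH and YKL members, or 0.224-fold (0.164 to 0.298) with PTH, and Pcp4, a calmodulin regulator, at 114, 35.6 and 114 CPM. Both were low in the PTH library alone. Fabp5, a fatty acid binding protein, was at 187, 59.4 and 91.0 CPM, or 0.317-fold (0.271 to 0.369). Tgfbi, a matrix protein induced by TGF-beta, was at 235, 78.0 and 133 CPM, and Ptx3, a soluble pattern receptor, at 114, 34.7 and 62.0 CPM. These 3 were highest in the control, as was the imprinted RNA H19, at 1287, 573 and 563 CPM. H2-DMa and H2-DMb1, which load class II antigens, were at 0.399-fold (0.360 to 0.442) and 0.393-fold (0.353 to 0.436). The 4 class II markers of antigen-presenting cells summed to 54.1, 8.99 and 10.5 CPM. Among the subclusters, H2-DMa was highest in 3 and 2, at 485 and 354 CPM, where these markers summed to 10.9 and 4.27 CPM. In subcluster 7 H2-DMa was at 285 CPM and the markers summed to 761 CPM. The part of antigen-presenting cells in the H2-DM values was not tested.

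YKL members had more Ppa1, Hes1, Ihh and Cdkn1c RNA than control members. Of 9473 genes, 757 (7.99%) reached 1.5-fold upward with YKL and 766 (8.09%) downward. Ppa1, the cytosolic pyrophosphatase, was at 253, 559.7 and 1437 CPM in control, PTH and YKL members, or 5.67-fold (5.41 to 5.94) with YKL. Hes1, a repressor downstream of Notch, was at 9.74, 18.6 and 61.1 CPM, or 6.27-fold (4.94 to 8.01). It stood at 100.0, 133 and 204 CPM in endothelial barcodes, whose 8 markers summed to 35.0, 63.5 and 15.3 CPM in the members. Of 251 Hes1 UMIs in YKL members, 142 lay in 5 members. For Ppa1, 5 members held 981 of 1744 UMIs in PTH and 1918 of 5907 in YKL. Ihh was 5.15-fold (4.52 to 5.89) and Cdkn1c 5.25-fold (4.90 to 5.63) of the control level. Below the rule's limit, Col10a1 had no UMI in 37.9%, 45.1% and 7.81% of control, PTH and YKL members. The YKL members were deeper, but their summed Col10a1 level was also at least 1.5-fold above the control. Ihh was higher in members near the Col10a1 limit, as given above. The part of this in the treatment ratios was not tested. Sgms2, a sphingomyelin synthase, was at 207, 452 and 972 CPM, Slc13a5, a citrate transporter, at 9.34, 20.9 and 51.1 CPM, and Cthrc1, a secreted protein of repair tissue, at 43.3, 97.9 and 192 CPM. Ppa1, Hes1, Sgms2, Slc13a5 and Cthrc1 stood in the order control, PTH, YKL, with counting intervals that did not overlap. Their order did not hold under every setting. Under equal weights for the subclusters, the YKL to PTH ratio was 0.983 for Cthrc1, 1.21 for Sgms2, 1.18 for Slc13a5 and 1.49 for Ppa1, and with Col10a1 below 0.02% the PTH to control ratio of Ppa1 was 1.16. With the subclusters weighted equally, the YKL ratios of Ppa1, Hes1, Sgms2, Slc13a5 and Cthrc1 were 2.76, 2.79, 1.73, 1.91 and 1.63, those of Ihh and Cdkn1c 2.47 and 1.67, and that of Ibsp 1.20, no longer past 1.5-fold. How far the ratios reflect more cells of a subcluster or more RNA in each cell cannot be told apart by the sums.

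The 5 red cell markers were lower with YKL as well, at a median log2 ratio of -5.91, while 8.09% of all genes were lower. Among them Alas2 reached 50 UMIs only through the control library. So did 7 of the 8 neutrophil markers, and no count of that list is given. Apart from these markers and genes under 50 CPM, the genes that led downward with YKL were Aspn, Postn, Meg3, Ccnd2, Rbp4, Ccdc34, Sbsn and H2-DMa. Aspn, the small proteoglycan asporin, was at 234, 187 and 50.6 CPM in control, PTH and YKL members, or 0.216-fold (0.187 to 0.249) with YKL. Postn, the matrix protein periostin, was at 523, 280.2 and 188 CPM, or 0.360-fold (0.333 to 0.388). The imprinted RNA Meg3 was at 619, 420.1 and 226 CPM, Ccnd2, the cyclin D2, at 79.9, 44.0 and 26.8 CPM and Rbp4, a retinol carrier, at 2924, 2239 and 1209 CPM. Aspn, Postn, Meg3, Ccnd2 and Rbp4 were highest in control and lowest in YKL members. With the subclusters weighted equally the Aspn ratio was 0.430. H2-DMa was at 0.293-fold (0.264 to 0.325), beside the class II sums given above.

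Between the treatments, 565 of 7853 genes (7.19%) reached 1.5-fold upward in YKL relative to PTH members and 475 (6.05%) downward. Leading upward were Nrn1 at 5.14-fold (3.81 to 7.06), the WNT inhibitor Wif1 at 3.37-fold (2.67 to 4.28), Hes1, Pcp4, Ppa1, Rnaset2a, Shisa4 and the fatty acid desaturase Scd1. Rnaset2a has a near-identical copy, so its split of reads is uncertain. All 4 red cell markers with enough UMIs were lower, at a median log2 ratio of -4.40, though Hba-a2 reached 50 UMIs only through the PTH library. Among the other genes of at least 50 CPM, leading downward were Aspn at 0.270-fold (0.229 to 0.317), Aldh1a3, Ecm1, Hip1, Hist1h1c, Igf2, Il17b and Snhg1. Wif1 stood at 39.2, 28.6 and 96.1 CPM, highest in the YKL library, but its YKL to control ratio was 1.33 with the subclusters weighted equally. Il17b, a cytokine, stood at 54.6, 102 and 40.1 CPM, highest in the PTH library, but its PTH to control ratio was 1.21 with Col10a1 below 0.02% and 1.36 after thinning. Ecm1, an extracellular matrix protein, stood at 54.5, 59.4 and 20.9 CPM, low in the YKL library alone.

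**Figure D3:**
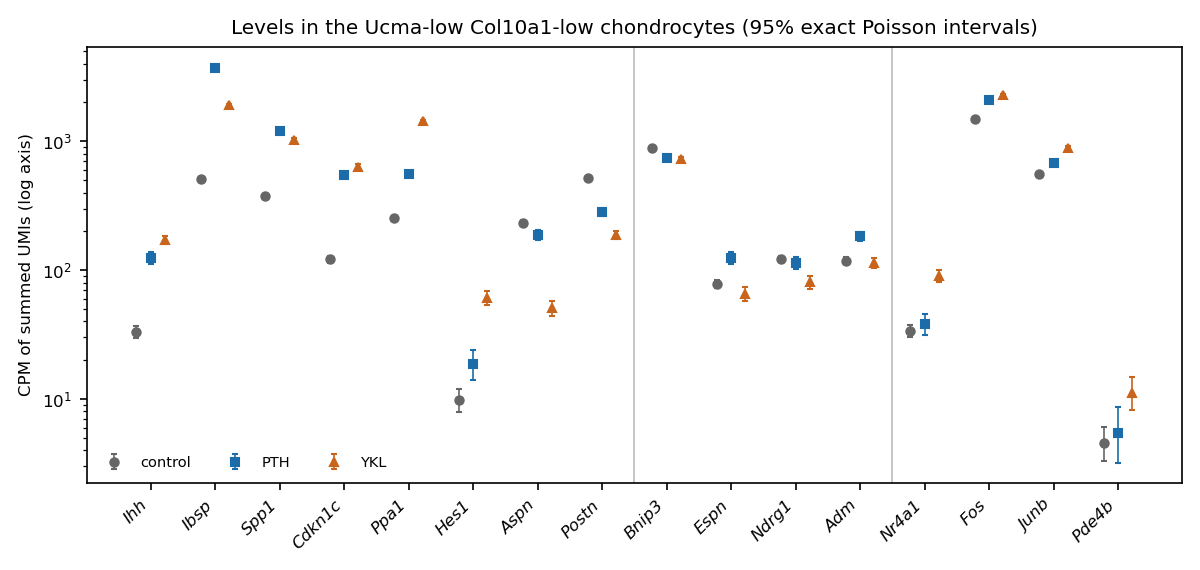
Levels of 16 genes in the Ucma-low Col10a1-low chondrocytes as CPM of summed UMIs (log vertical axis) in the control, PTH and YKL libraries, with exact Poisson 95% intervals of counting error. Vertical lines part leading treatment genes, hypoxia and marker genes, and cAMP response genes; Ihh, Ibsp, Spp1 and Cdkn1c were lowest in control, and Aspn was lowest in YKL members.

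The PTH and salt-inducible kinase pathway was measured from the receptor to its targets. Pth1r, the receptor, was at 702, 962 and 1322 CPM in control, PTH and YKL members, or 1.37-fold (1.31 to 1.43) with PTH and 1.88-fold (1.82 to 1.95) with YKL. Its cartilage ligand Pthlh had 6, 0 and 0 UMIs. Sik3, a kinase of the family, was at 20.8, 25.7 and 34.6 CPM, or 1.66-fold (1.33 to 2.07) with YKL. Sik2 was at 5.83, 10.6 and 4.62 CPM, highest with PTH, and Sik1 had 23, 17 and 21 UMIs, too few for a ratio. For the kinase targets Hdac4, at 9.04, 9.95 and 7.30 CPM, and Crtc3, at 15.9, 18.9 and 18.2 CPM, the counting intervals of the ratios included 1. Mef2c, a transcription factor that class IIa deacetylases hold back, was at 379, 669.7 and 626 CPM, or 1.77-fold (1.67 to 1.86) and 1.65-fold (1.57 to 1.73). Of 15 genes of the pathway list 3 were higher with PTH and 4 with YKL, and 0 were lower with either. Over all genes 6.19% and 7.99% were higher and 6.19% and 8.09% lower. With the subclusters weighted equally, the YKL ratios of Pth1r, Sik3 and Mef2c were 1.24, 1.36 and 1.23, below 1.5-fold, as was the PTH ratio of Sik2, at 1.34.

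Of 17 cAMP response genes, which CREB and its CRTC coactivators switch on, 8 were higher and 1, Rgs2, lower with YKL. Their median log2 ratio was 0.49, against -0.01 over all genes, of which 7.99% were higher and 8.09% lower. Rgs2 reached the minimum of UMIs only through the control library. With PTH 2 of the 17 were higher and 2 lower (median log2 ratio 0.27, against -0.01), beside 6.19% and 6.19% of all genes. Nr4a1, an orphan nuclear receptor and immediate early gene, was at 33.8, 38.2 and 90.5 CPM, or 2.67-fold (2.30 to 3.11) with YKL, and its relative Nr4a3 at 3.92, 8.34 and 18.98 CPM, both highest in YKL members. Fos and Junb, at 1.54-fold (1.498 to 1.58) and 1.58-fold (1.52 to 1.65), are also set off by tissue digestion, and of 17 genes of a digestion list 3 were higher and 1 lower with YKL. In endothelial barcodes Fos stood at 334, 898 and 895 CPM and Nr4a1 at 41.0, 47.5 and 74.3 CPM. The part of digestion in the cAMP genes was not tested. Relative to PTH members, 7 of 16 cAMP genes were higher in YKL members and 0 lower, beside 7.19% and 6.05% of all genes. Of these 7, Crem and Pde4b reached the minimum of UMIs only through the YKL library.

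Of 15 prehypertrophic genes 6 were higher with PTH and 8 with YKL, and 0 were lower with either, with median log2 ratios of 0.39 and 0.72. Over all genes 6.19% were higher and 6.19% lower with PTH and 7.99% and 8.09% with YKL. The median log2 ratio of all genes was -0.01 with either. Col10a1 RNA below the rule's limit differed between control and YKL members, as given above, and its part in these counts was not tested. Panx3, a channel of maturing chondrocytes and osteoblasts, was at 199.9, 343 and 703 CPM, in the order control, PTH, YKL. Its PTH and YKL ratios were 1.45 and 1.94 with the subclusters weighted equally. Fgfr3, the receptor that slows cartilage growth, was at 360.2, 284 and 265 CPM, highest in the control. Of 11 hypertrophic genes 4 were higher and 2, Adamts1 and Mmp13, lower with PTH, and 4 and 2 with YKL. Ibsp, Spp1 and the lysyl oxidase Loxl4 were higher with both, but with the subclusters weighted equally the YKL ratios of Loxl4 and Ibsp were 1.31 and 1.20. Alpl, the phosphatase of mineralization, was at 596, 828 and 1226 CPM, or 2.06-fold (1.98 to 2.14) with YKL. Mmp13 was at 10.8, 5.13 and 5.11 CPM, but higher with YKL when the tendon gene limit was 2 UMIs.

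Of the 15 osteoblast genes in the files, Bglap, Bglap2 and Ifitm5 reached the minimum of 50 UMIs only through the YKL library (at the lower library's level in both, they would have stayed under it), so no count of this list is given. Col1a2, a chain of type I collagen, was at 5829, 7486 and 9676 CPM. It passed 1.5-fold with YKL, but not after thinning to 2000 UMIs, at 1.24. Bglap, which encodes osteocalcin and shares reads with near-identical copies, had 3, 4 and 128 UMIs, or 103-fold (34.6 to 508) with YKL, and 68 of 128 of the YKL UMIs lay in 5 members. Ifitm5, an osteoblast membrane protein, had 2, 17 and 114 UMIs, of which 84 of 114 in YKL lay in 5 members. Both had most of their UMIs in YKL members. With the subclusters weighted equally the ratios were 14.7 and 34.0.

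Of 34 hypoxia genes 2 were higher and 3 lower with PTH (median log2 ratio -0.17), and 2 higher and 7 lower with YKL (-0.29). Over all genes 6.19% were higher and 6.19% lower with PTH and 7.99% and 8.09% with YKL, so both PTH counts were near the share over all genes. Bnip3 was within 1.5-fold, at 0.837-fold (0.7995 to 0.877) and 0.818-fold (0.784 to 0.853), and so was Cox4i2, at 1.01-fold (0.960 to 1.06) and 1.01-fold (0.966 to 1.06). Col9a3 was at 0.772-fold (0.760 to 0.785) and 0.855-fold (0.843 to 0.867). The fourth marker, Espn, was at 1.59-fold (1.40 to 1.79) with PTH and 0.836-fold (0.725 to 0.961) with YKL, and Adm at 1.54-fold (1.39 to 1.71) and 0.962-fold (0.862 to 1.07), both highest in PTH members. After thinning to 2000 UMIs the PTH ratios of Espn and Adm were 1.49 and 1.36, and that of Espn was 1.01 with the subclusters weighted equally, all below 1.5-fold. Fam162a, a mitochondrial hypoxia target, was at 1767, 1098 and 948 CPM and Higd1a, which stabilizes respiratory complexes, at 2659, 1686 and 1781 CPM. Ndufa4l2, a hypoxia-induced mitochondrial protein, was at 1869, 985 and 967 CPM. These 3 were highest in the control. Ndrg1 was at 0.661-fold (0.584 to 0.747) with YKL (0.828 with the subclusters weighted equally), while Bhlhe40, a repressor induced by hypoxia, was at 41.6, 47.8 and 97.8 CPM, highest in YKL members. Of 22 glycolysis genes 0 were higher and 3 lower with PTH, and 1, Hk2, was higher and 2 lower with YKL. The YKL counts are near or below the 7.99% and 8.09% of all genes.

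**Figure D4:**
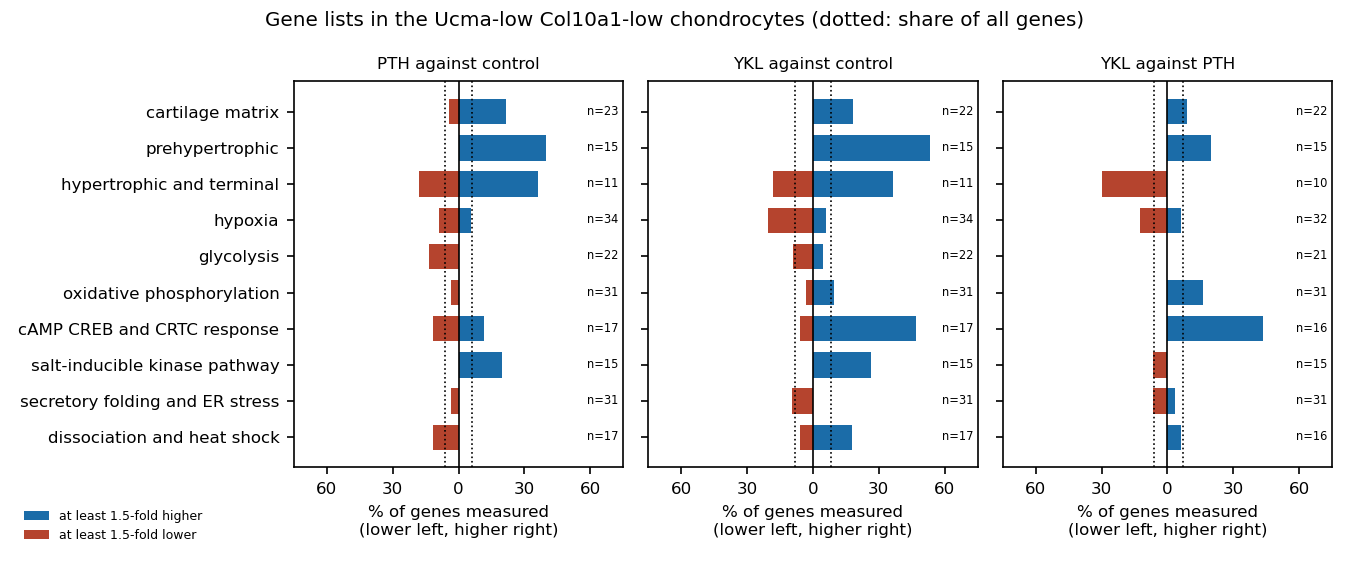
Share of the measured genes of 10 lists (%, horizontal axes) that were at least 1.5-fold higher (right) or lower (left) in the Ucma-low Col10a1-low chondrocytes for each pair of libraries, with the number measured; dotted lines give the share over all genes. With YKL relative to control, 8 of 15 prehypertrophic and 8 of 17 cAMP response genes were higher and 7 of 34 hypoxia genes lower.

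Of 23 cartilage matrix genes 5 were higher and 1, Prelp, lower with PTH, and of 22 with YKL 4 were higher and 0 lower. Over all genes 6.19% were higher and 6.19% lower with PTH and 7.99% and 8.09% with YKL. Cilp2, among the 5, reached 50 UMIs only through the PTH library. Matn1 was counted as higher with both, but its PTH and YKL ratios were 1.09 and 0.617 with the subclusters weighted equally. Chad, the cell-binding protein chondroadherin, was at 261, 639.9 and 612 CPM, lowest in the control. Matn3, a matrilin of growth cartilage, was at 2172, 1451 and 1739 CPM, and Col27a1, a fibrillar collagen of cartilage, at 762, 918 and 1397 CPM. Hapln1, which links aggrecan to hyaluronan, was at 4823, 5058 and 6126 CPM, and Comp, a pentameric matrix protein, at 7103, 8062 and 9439.5 CPM. Hapln1 and Comp stayed within 1.5-fold of the control. Matn3 was at 0.668-fold (0.647 to 0.690) with PTH, at the edge of that limit, and went as low as 0.522-fold under other settings. The regulator Sox9 was at 0.944-fold (0.901 to 0.988) and 0.922-fold (0.885 to 0.961). Of 31 genes of secretory folding 0 were higher and 3, the stress genes Chac1, Ddit3 and Trib3, lower with YKL, and 1, Chac1, was lower with PTH. These shares are near or below those of all genes lower, 8.09% and 6.19%.

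The next lists are read beside all genes, of which 6.19% were higher and 6.19% lower with PTH and 7.99% and 8.09% with YKL. Of BMP and TGF-beta genes 7 of 23 were higher and 2 lower with PTH, and 8 of 24 higher and 4 lower with YKL, where Bmp7 and Grem1 reached 50 UMIs only through the library in which they were higher. Nog, a secreted BMP inhibitor, was at 37.4, 59.0 and 77.6 CPM, lowest in the control, and Grem1, another one, at 7.33, 22.8 and 1.95 CPM, highest with PTH. Of 12 insulin-like growth factor genes 2 were higher and 1 lower with PTH and 0 higher and 3 lower with YKL. Igf2 was at 48.1, 55.8 and 19.95 CPM, low in the YKL library alone. Of the CCN family, secreted matrix signals, 3 of 4 were higher with YKL, and 0 of 3 were higher or lower with PTH. The 1 lower with YKL, Ccn5, reached 50 UMIs only through the control library. Ccn2 was at 123, 139 and 295 CPM, high in the YKL library alone. Lists of so few genes move by large shares with 1 gene. Of 8 hedgehog genes measured, Ihh was the 1 higher with either treatment, and Cdon and Ptch1 were lower with YKL. Gli1 and Gas1 reached 50 UMIs only through the control library, at 51, 9 and 6 and 75, 10 and 4 UMIs. No count of lower genes is therefore given.

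Cell cycle genes rested on few members. The 6 genes of the G2 and M phase list compared with YKL reached 50 UMIs only through the control library, so no count of the list is given. Top2a, a topoisomerase of dividing cells, had 43, 80 and 3 UMIs in control, PTH and YKL members. Of the 753 UMIs of the list in PTH members 711 lay in 5 members, and of 659 in the control 394. At least 2 UMIs of the list were found in 8.40%, 5.49% and 10.9% of members, an order that differs from that of the levels. Mki67, another division marker, was lower with PTH when the Col2a1 limit was 2%, at a log2 ratio of -0.61.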

How the data were processed

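RNA of single callus cells was captured with a droplet 3′ kit. Per the file headers the counting tool was Cell Ranger 4.0.0; the submitters' processing notes also name mm10 and Seurat. The deposited values are raw UMI counts per gene and barcode (32285 gene rows), and the annotation release and use of strand are not given. UMIs of the members were summed per library. Ratios of CPM carry exact conditional binomial 95% intervals, CPM exact Poisson and shares exact Clopper-Pearson intervals. A gene needed 50 UMIs over both sides of a comparison, and higher or lower means a ratio of at least 1.5 or at most its inverse. Subclusters came from 1500 variable genes, 20 principal components, 15 neighbours and Leiden resolution 0.6 in scanpy 1.11.5 (Python 3.11.15, numpy 2.4.6, scipy 1.17.1). The ratio intervals were tried on simulated sums drawn from the Poisson counting model that they assume. UMIs held by few members were not simulated, so this check cannot show how the intervals fare with them. Promoters are RefSeq's.

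Genes were named by fixed rules: the 4 proposed markers, the 6 genes per direction with the largest ratio in all 3 libraries, the 8 per direction and treatment pair whose interval bound nearest to 1 lies farthest from it (among genes with at least 50 CPM in 1 library, leaving out genes of the rule, mt-, Rpl, Rps, Gm and Rik genes and markers of other cells), up to 4 members of each of 43 lists, and a panel. Other genes in the text (for example Ero1l) were picked after their values were seen. Members and lists were chosen with earlier results of these data known. Other settings tried were the limits of the rule, the minimum of UMIs, the scaling, the depth (by thinning) and leaving out doubtful members; equal weights for subclusters, the control and PTH libraries alone, and leaving out the subclusters led by blood or endothelial genes were added after the data were seen. Leaving out a replicate was not possible.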

Additional observations from a re-analysis of the deposited data

Results flagged for a closer look

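For some genes the ratio between libraries passed 1.5-fold in opposite directions in the members and in another group of chondrocytes; none of these differences was tested, and each rests on 1 library per group.
With PTH relative to control, members and Ucma-high chondrocytes differed in direction for Espn (1.59 against 0.330), Il17b (1.86 against 0.541) and the BMP inhibitor Nog (1.58 against 0.298). Members and Col10a1-intermediate chondrocytes differed for Ccnd2 (0.550 against 1.64), Igfbp6 (1.60 against 0.610), Matn1 (2.68 against 0.511), Ppa1 (2.21 against 0.666), Spp1 (3.17 against 0.464) and Top2a (5.94 against 0.0743). Members and Col10a1-high chondrocytes differed for Hmox1 (0.385 against 1.76), Ier3 (0.634 against 2.07), Matn1 (2.68 against 0.598), Nrn1 (0.224 against 3.31), Ppa1 (2.21 against 0.564), Ptgs2 (0.542 against 1.53), Sgms2 (2.18 against 0.504) and Spp1 (3.17 against 0.650).
With YKL relative to control, Depp1 was at a ratio of 0.423 in the members and 1.67 in Col10a1-intermediate chondrocytes, and Spp1 at 2.73 and 0.5002. In the members and in Col10a1-high chondrocytes the ratios were 0.590 and 1.63 for Ddit3, 0.553 and 1.96 for Hmox1, 0.525 and 1.56 for Ier3, 0.415 and 1.52 for Igf2, 2.26 and 0.574 for Scd1, 5.47 and 0.585 for Slc13a5, 2.73 and 0.586 for Spp1, and 0.553 and 3.63 for Trib3. With YKL relative to PTH, members and Col10a1-intermediate chondrocytes were at 1.96 and 0.412 for Cthrc1 and 1.71 and 0.459 for Gdf5. Members and Col10a1-high chondrocytes were at 24.3 and 0.631 for Bglap and 0.357 and 1.70 for Igf2. Depp1 reached 50 UMIs in the members only through the control library, with 63 UMIs against 11 in YKL. Bglap reached it only through the YKL library, with 128 UMIs against 4 in PTH. In 5 members lay 31 of the 63 Depp1 and 68 of the 128 Bglap UMIs. Endothelial barcodes had Depp1 at 209 and 160 CPM in control and YKL. No direction is therefore read for Depp1 or Bglap. Several member ratios came within 1.5-fold under other settings, and the ratios of the other groups were not recomputed. With the subclusters weighted equally the PTH ratio in the members was 1.01 for Espn, 1.33 for Nog, 1.09 for Matn1, 0.769 for Ier3 and 1.40 for Sgms2, the YKL ratio 0.8001 for Hmox1 and 0.689 for Ier3, and the YKL to PTH ratio 0.983 for Cthrc1. With Col10a1 below 0.02% the PTH ratio was 1.21 for Il17b, 1.15 for Matn1 and 1.16 for Ppa1. With Ucma below 0.05% it was 1.20 for Ppa1 and below 0.2% 1.43 for Top2a, and with Col2a1 at least 2% it was 1.08 for Igfbp6. Thinned to 2000 UMIs the YKL ratio of Trib3 was 0.746, and with tendon genes below 2 UMIs the YKL to PTH ratio of Gdf5 was 1.40. Spp1 was higher with each treatment in the members and lower in both Col10a1 groups. Of the control, PTH and YKL Spp1 UMIs of the members, 1234 of 3751, 1662 of 3724 and 2522 of 4228 lay in 5 members. For Top2a, 21 of 43 control UMIs and all 80 PTH UMIs lay in 5 members.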

How the results depend on the processing

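Each group is 1 library, so no replicate could be left out. No paired analysis was possible because each group holds 1 library. Depth limits genes of few UMIs, and 5 members hold much of some genes. Of 7699 gene values of the treatment pairs under alternatives, 7370 stayed on their side of the 1.5-fold limits, though 243 of these, all within 1.5-fold of 1, crossed from one side of 1 to the other; 4 values past 1.5-fold reversed, and 3 that were within it passed it on the other side of 1: log2 ratios of -0.62 for Trib3 (PTH to control, thinned), -0.74 for Cdkn1c (YKL to PTH, subclusters weighted equally) and 1.06 for Matn1 (YKL to PTH, Col10a1 below 0.02%). Of 3024 values against other chondrocytes, 3012 stayed, 1 reversed and 1 passed on the other side (-0.62 for Espn, YKL members to Col10a1-intermediate, Col2a1 at least 2%). Reversed log2 ratios were -0.61 for Mki67 (PTH to control, Col2a1 at least 2%), -0.70 for Matn1 (YKL to control, subclusters weighted equally), 0.73 for Mmp13 (YKL to control, tendon genes below 2 UMIs), -0.025 for Cthrc1 (YKL to PTH, equal weights) and 2.10 for Mest (YKL members to Ucma-high, Ucma below 0.2%). The endothelial median turned to -0.87 (Col10a1 below 0.02%), -1.17 (without the deepest 5%) and -0.52 (equal weights) with PTH and to 0.29 (Ucma below 0.2%) with YKL. Counts of genes past 1.5-fold moved with how many genes could be measured. Thinned to 2000 UMIs, 208 were higher and 367 lower with PTH, 271 and 379 with YKL, and 150 and 88 between YKL and PTH. Against Ucma-high, Col10a1-intermediate and Col10a1-high chondrocytes thinning gave 37 and 14, 11 and 28, and 121 and 88. At 20 UMIs per gene there were 1030 and 961 with PTH, 1240 lower with YKL, 991 and 991 between the treatments and 96 higher than in Col10a1-intermediate chondrocytes. At 1 UMI there were 4779 and 1504, 4309 and 1990, and 2702 and 3292, and against the 3 groups 285 and 532, 207 and 573, and 979 and 1303. With Col10a1 below 0.02%, 38 genes were lower than in Ucma-high and 22 higher than in Col10a1-intermediate chondrocytes, and with Col2a1 at least 2%, 37 were higher than in the latter. The cause of these last 3 moves and of the reversals was not tested.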
